A study of Arabidopsis thaliana with 22 samples.

Results

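Plastid-encoded genes were followed in etiolated Arabidopsis thaliana seedlings given blue, red or white light. They were taken as the genes whose identifier starts with ATCG, the prefix of the plastid genome, and of these the genes with a total of 220 or more counts over 22 libraries were kept. This left 24 of 133 plastid genes, in a table of 33602 genes. The threshold cut through low counts: ATCG00040, ATCG00860 and ATCG01000 lay just inside it with 220, 259 and 275 counts, and ATCG00250, ATCG00160 and ATCG00490 just outside with 206, 193 and 158. The files and the reference used here do not pair these identifiers with gene names, so members are given by identifier, without function, length or sequence.

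The study measured RNA in Col-0 seedlings, with no mutation or transgene named in the labels, which germinated after a white-light pulse and grew for 6 days in darkness on medium with sucrose. There were 3 series, named for their colour, with 2 libraries in each of 11 groups. The blue and the red series each held dark seedlings at 0 h, seedlings after 1 h of light, seedlings after 6 h of light and seedlings kept dark for those 6 h. The white series held 0 h, 6 h light and 6 h dark, and no 1 h white-light libraries were analysed here. The labels call the libraries duplicates and do not say whether they came from separate cultures, so p-values measure the spread between these libraries, which may be technical.

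The plastid genome of a land plant encodes part of the photosynthetic machinery (subunits of both photosystems, the cytochrome complex, the ATP synthase and the large subunit of Rubisco), part of the plastid ribosome with its RNAs, and the core of a bacterial-type RNA polymerase. That polymerase needs sigma factors, which are encoded in the nucleus, to find promoters, and nuclear phage-type polymerases transcribe other plastid genes. In a dark-grown seedling the plastid is an etioplast, which light turns into a chloroplast. Stable plastid transcripts carry no long poly(A) tail, and short tails added to them mark RNA for decay, so a library that starts from polyadenylated RNA, as the kit named in the labels usually does, samples plastid RNA sparsely.

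Plastid genes held 1131070 of 1461553283 counts, and library totals ran from 35000731 to 138804638. The plastid share, as CPM, the usual scaling of counts to a common library total, ranged from 389.7 CPM in library 2 of blue 6 h light (95% Wilson interval 386.4 to 393.0, counting error only) to 1771 CPM in library 1 of blue 0 h (1758 to 1784). It was 1277 ± 699 CPM at blue 0 h and 694.9 ± 431.5 CPM at blue 6 h light (SD, n = 2), so libraries of one group differed by as much as the groups did. Mitochondrial genes, the other organelle set in the table, ranged from 224.6 to 1613 CPM. In 8 of 11 groups the library with the higher plastid share also had the higher mitochondrial share. The deeper library had the lower plastid share in 9 of 11 groups and the lower mitochondrial share in 6 of 11. Dark libraries were sequenced 4 to a pool and light libraries 2 to a pool. An effect of light against darkness on any member and an effect of the pool therefore cannot be told apart. Pool size is equal between 1 h and 6 h of light, and responses compared between colours have the same pool sizes on both sides. Less RNA per plastid, fewer plastids per cell and a lower share of tailed RNA cannot be told apart in these data either.

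**Figure D1:**
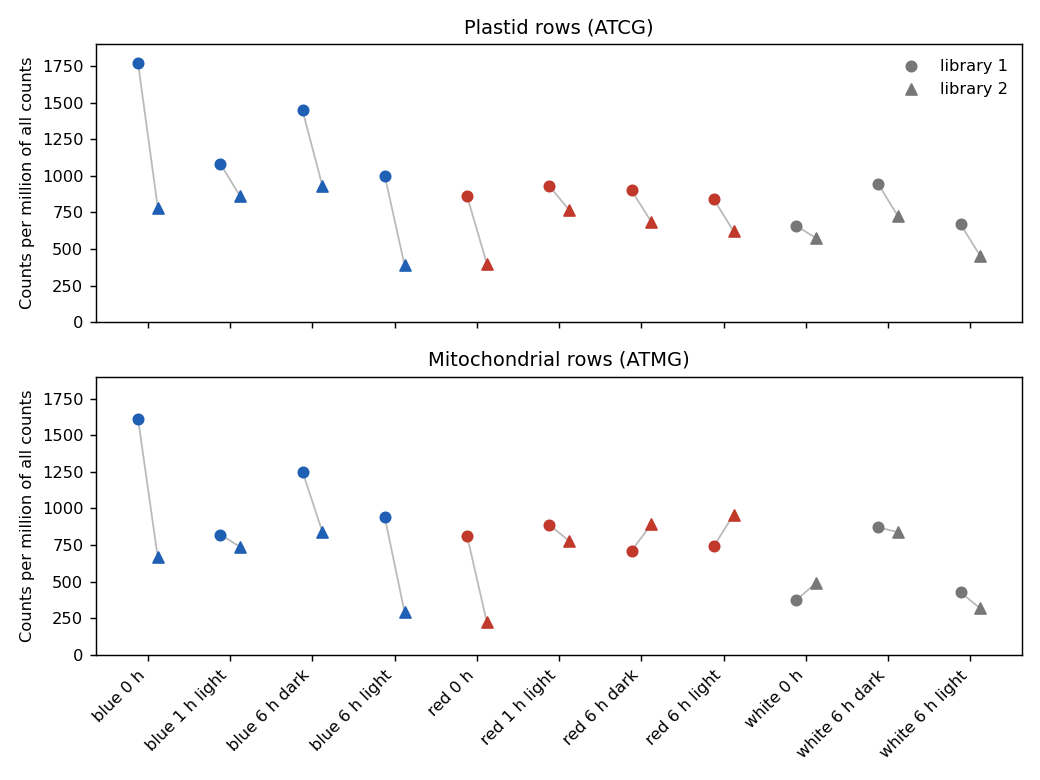
Plastid share (top) and mitochondrial share (bottom) of all counts, in CPM of the raw totals on the y axis, by group on the x axis. Circles are library 1 and triangles library 2, coloured by series and joined within a group; the plastid share spans 389.7 to 1771 CPM, and the pair of libraries at blue 0 h lies farther apart than most groups do from each other.

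Counts were concentrated in a few neighbouring identifiers. ATCG00120 held 705654 counts, 62.39% of all plastid counts, and ATCG00130 held 234988, or 20.78%. ATCG00110 held 6.042% and ATCG00100 held 5.517%, so these 4 consecutive identifiers took 94.72% of plastid counts over all libraries and 91.44% to 96.52% in single libraries. ATCG00190 followed with 30836 counts (2.726%) and ATCG00180 with 9479 (0.8381%). These shares are of counts and are not corrected for gene length, so they do not rank the genes by transcript level.

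The other 18 members held few counts. ATCG00350 had 5184 over all libraries and ATCG01250 had 1397, and ATCG00040 reached only 0 to 30 counts per library. All 24 members together took 99.72% of plastid counts. Among the other plastid genes, 61 had some counts and 48 had none in any library, which allows at most 0.002053 CPM over all libraries. Members were unevenly placed along the identifier series: 16 of 37 genes from ATCG00010 to ATCG00360 were members and held 99.41% of plastid counts with the non-members among them, against 3 of 60 from ATCG00370 to ATCG00950 and 5 of 36 from ATCG00960 to ATCG01310. Identifiers follow gene order only as far as the numbering does, and no coordinates were used. Land plant plastid genomes carry an inverted repeat, and counts of genes present in both of its copies depend on a treatment of multiply placed reads that is not given in the sources used here.

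The leading members kept their proportions from library to library. ATCG00130 stood at 30.24% to 38.01% of the ATCG00120 count, a 1.257-fold range, while the ATCG00120 level itself ranged from 232.8 to 1138 CPM (from here on scaled to the normalised library size), a 4.886-fold range. ATCG00110 stood at 7.701% to 11.84% of ATCG00120 and ATCG00100 at 6.93% to 10.77%. ATCG00190 varied more against it, from 2.349% in library 1 of white 6 h light to 7.363% in library 2 of red 6 h dark. ATCG00340 and ATCG00170, with 10 to 88 counts per library, varied 13.32-fold and 14.01-fold against ATCG00120.

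The level of ATCG00120 shows how the libraries fall. In the blue series it was 1137.5 and 483.3 CPM at 0 h, 694.7 and 558.7 after 1 h of light, 911.8 and 580.1 at 6 h dark and 688.3 and 266.7 at 6 h light, library 1 first. In the red series it was 521.9 and 232.8 CPM at 0 h, 572.8 and 464.5 after 1 h, 548.4 and 395.5 at 6 h dark and 528.2 and 392.5 at 6 h light. In the white series it was 400.8 and 347.5 CPM at 0 h, 554.4 and 431.0 at 6 h dark and 435.0 and 279.4 at 6 h light. Library 1 was the higher of each pair in 11 of 11 groups, and at 6 h the dark and light libraries overlapped in all 3 series.

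**Figure D2:**
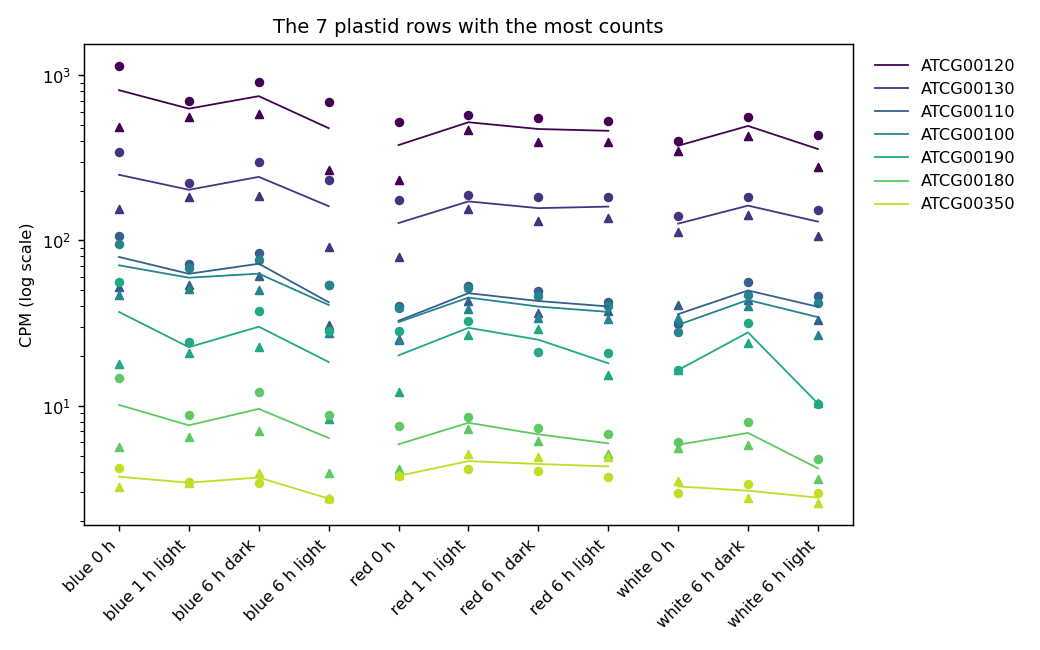
Levels of the 7 plastid genes with the most counts (y axis, CPM on a log scale) by group (x axis), with circles for library 1, triangles for library 2 and lines through the group means. ATCG00120 runs from 232.8 to 1138 CPM, and library 1 lies above library 2 in each of the 11 groups.

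Some members differed in the same direction between the libraries of nearly every group. ATCG00120, ATCG00130 and ATCG00180 were higher in library 1 in 11 of 11 groups, a property of 2.24% of all genes tested. With ATCG00100, ATCG00110 and ATCG00740, 6 members were higher in library 1 in 10 or more groups, against 7.05% of all genes. In the other direction ATCG00170, ATCG00240 and ATCG00280 were higher in library 2 in 9 of 11 groups, where 16.8% of all genes were so in 9 or more. The other 15 members lay between these, as ATCG01000 did with 6 groups higher in library 1 and 5 in library 2. In the red series 8 members were higher in library 2 in 4 of 4 groups, a property of 13.9% of all genes, and ATCG00340, ATCG00350 and ATCG00860 were among them. The labels do not say what the replicate number marks.

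Over the 11 group means, levels were compared as log2 of CPM with 0.1 added. The level of ATCG00130 followed that of ATCG00120 with a Pearson r of 0.995, and ATCG00100 (0.98), ATCG00110 (0.965), ATCG00740 (0.962) and ATCG00180 (0.931) came next. ATCG00040 (-0.511), ATCG00860 (-0.454) and ATCG00170 (-0.44) were at the other end. The median library levels of ATCG00040 and ATCG00860 were only 0.1175 and 0.1525 CPM, so their r values depend in part on the added 0.1. These are descriptions over groups that share library depth and normalisation. ATCG00120 was chosen as the reference after its values were seen, because it holds the most counts.

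**Figure D3:**
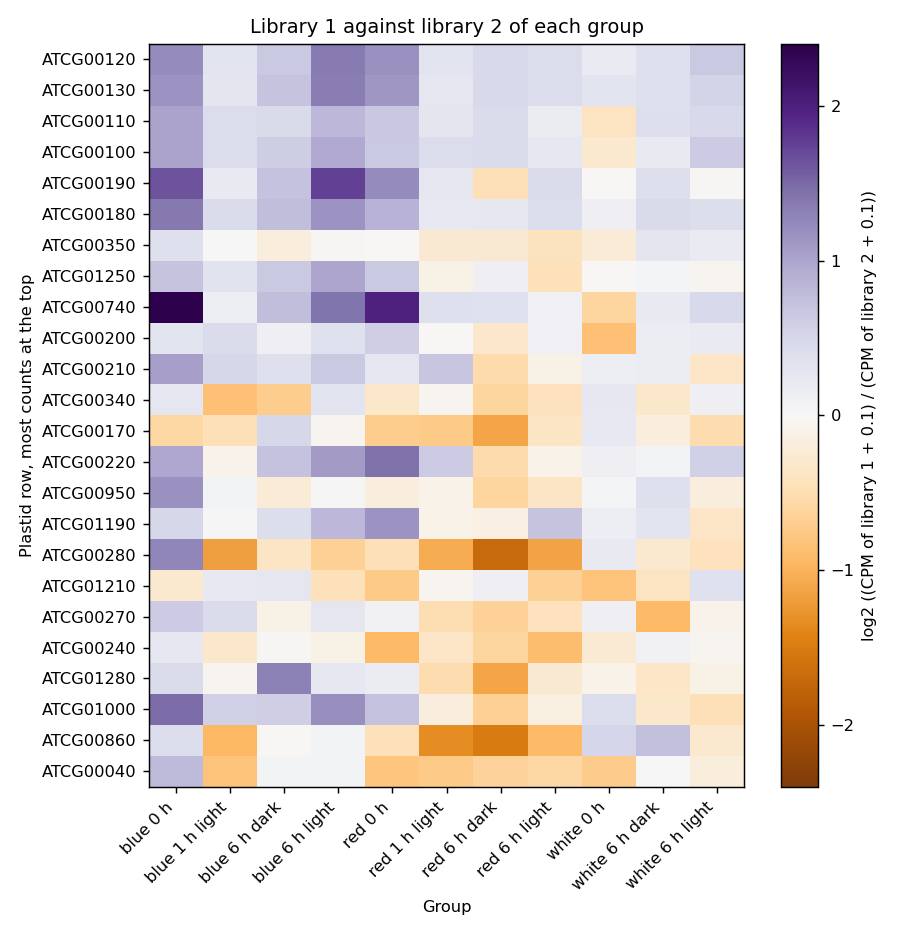
Log2 ratio of library 1 to library 2 for each of the 24 members (rows, most counts at the top) in each of the 11 groups (columns), from CPM with 0.1 added. Purple marks a higher library 1 and orange a higher library 2; ATCG00120, ATCG00130 and ATCG00180 are purple in 11 of 11 groups, and most members low in the plot are orange in the red columns.

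The first question is what 1 h of light did. No member was called in blue light, where 8.13% of all genes were, or in red light, where 4.61% were, at an adjusted p under 0.05 in edgeR's quasi-likelihood test over 23011 genes. DESeq2 called none either, and 1 member in each comparison had an unadjusted p under 0.05 with either tool. In edgeR 4335 of 23011 genes in blue and 3348 in red had a p that low. ATCG00950 in blue had a log2 change of -0.93 (SE 0.38, adjusted p 0.1918), with 0.792 and 0.2948 CPM at 0 h and 0.2944 and 0.2758 CPM after 1 h. ATCG01250 in red had a log2 change of 0.86 (SE 0.37, adjusted p 0.2941), with 0.9481 and 0.5707 CPM at 0 h against 1.29 and 1.422 CPM after 1 h.

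The signs of the members' changes at 1 h differed between the colours. In blue 19 of 24 log2 changes were negative with a median of -0.36, and in red 21 of 24 were positive with a median of 0.44, while the medians over all genes were 0.02 and -0.002. In blue both light libraries lay below both dark ones for 4 members and above for 0, where 18.5% and 22.9% of all genes did so. In red they lay above for 6 members and below for 0, against 23.3% and 20.3% of all genes. The difference between the colours was not called for any member in edgeR, nor for any other gene. In edgeR 4 members had an unadjusted p under 0.05, as did 1415 of all 23011 genes. With DESeq2, which gave no adjusted p for 17 members, 3 members had one. Members share libraries, and the leading ones rise and fall together between them, so these signs are not independent of each other. The same holds for the signs counted in the comparisons below. Without library 2 of blue 0 h, 1 member was called lower in blue, and the median over members in blue was -0.80. Without library 1 of blue 0 h that median was 0.23. The median in red was 0.83 without library 1 of red 0 h and 0.25 without library 2.

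At 6 h each colour was set against its own 6 h dark group. In blue light ATCG00340 fell, with 0.3851 and 0.6927 CPM in the dark and 0.2552 and 0.1856 CPM in the light, a log2 change of -1.34 (SE 0.41, edgeR adjusted p 0.01882). It was the 1 member called, where 14.6% of all genes were called lower, and it rests on 14 to 40 counts per library. Its call was lost without library 2 of blue 6 h dark (adjusted p 0.2547) and without library 2 of blue 6 h light (0.1442). The median over members was -0.64 and 22 of 24 changes were negative, against 0.03 and 47.32% over all genes. The median was -1.16 without library 1 of blue 6 h light and -0.23 without library 2, and it was -0.33 without library 1 of blue 6 h dark.

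No member was called at 6 h in red light, where 27.7% of all genes were. None had an unadjusted p under 0.05 with edgeR or DESeq2, where 8742 of 23011 genes did in edgeR. The members' median was -0.25 and 18 of 24 changes were negative, against 0.01 and 49.09% over all genes. That median over members was -0.62 without library 1 of red 6 h dark and -0.06 without library 2. In white light the members' median was -0.51 and 22 of 24 changes were negative, against 0.01 and 48.92% over all genes. With either tool 3 members had an unadjusted p under 0.05, where 11396 of 23011 genes did in edgeR. No member was called there by edgeR, against 41.6% of all genes. ATCG00190 came closest, with 31.48 and 24.11 CPM in the dark and 10.22 and 10.43 CPM in the light, a log2 change of -1.43 (SE 0.55, adjusted p 0.05006). DESeq2 called it lower. Both light libraries were below both dark ones for 9 members in blue (28.8% of all genes), 6 in red (30.8%) and 12 in white (36.6%), and above for 2, 0 and 2 (36.9%, 34.8% and 39.7% of all genes).

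**Figure D4:**
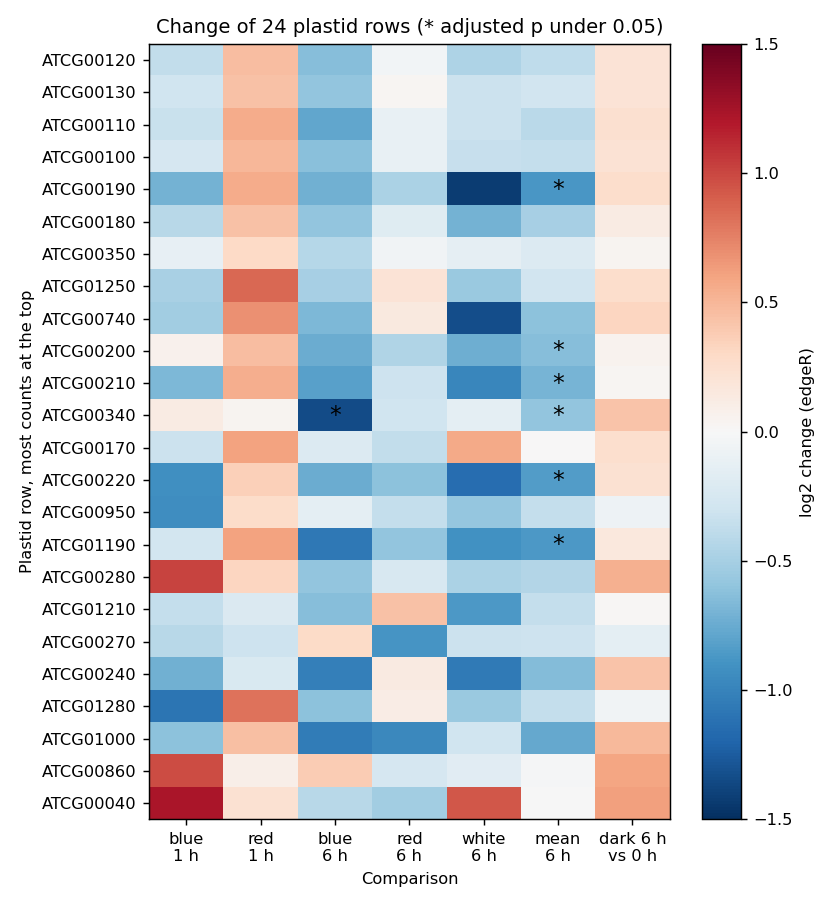
Log2 change (colour) of each of the 24 members (rows, most counts at the top) in 7 comparisons (columns), from the edgeR fit; an asterisk marks an adjusted p under 0.05. The 6 h columns are mostly blue (lower in light), the red 1 h column is mostly red (higher), and the asterisks number 7, of which 6 are in the mean over the colours at 6 h and 1 is ATCG00340 in blue light.

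Averaged over the 3 colours at 6 h, 6 of 24 members (25%) fell and none rose, where 25.9% of all genes tested were lower and 32.5% were higher. In this main fit the share of members called lower is thus close to that of all genes. In a fit with the replicate number as a block, given below, the members' share is the higher one. The members' median log2 change in the main fit was -0.39 and 23 of 24 were negative, against a median of 0.02 and 48.53% negative over all genes. As at 1 h, members share libraries, so these signs are not independent of each other. Of the 6 that fell, ATCG00190, ATCG00200, ATCG00210 and ATCG00220 have consecutive identifiers, and ATCG00340 and ATCG01190 lie elsewhere in the series.

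ATCG00200 had the smallest adjusted p. It stood in the dark at 1.083 and 0.9871 CPM (blue), 0.8694 and 1.094 CPM (red) and 0.8918 and 0.791 CPM (white). In the light it stood at 0.7108 and 0.5408 CPM (blue), 0.7452 and 0.6911 CPM (red) and 0.544 and 0.4622 CPM (white). All 6 light libraries were below all 6 dark ones, as they were for 12.9% of all genes, and the log2 change was -0.64 (SE 0.18, adjusted p 0.006797, 1.56-fold lower). It passed in each of 12 fits that left out 1 library.

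ATCG00190 had the largest change among the 6 and far more counts, 770 to 1648 per library at 6 h. Its level was 21.09, 26.62 and 37.5 CPM (lowest, median, highest of 6) in the dark and 8.37, 12.9 and 28.43 CPM in the light, and 5 of 6 light libraries were below all dark ones. The log2 change was -0.87 (SE 0.31, adjusted p 0.02672). ATCG01190 had 0.3498, 0.4753 and 0.722 CPM in the dark and 0.1725, 0.2283 and 0.4192 CPM in the light, a log2 change of -0.86 (SE 0.28, adjusted p 0.01579). ATCG00210 changed by -0.70 (SE 0.23, adjusted p 0.01681) and ATCG00220 by -0.83 (SE 0.34, adjusted p 0.04581), and for both 4 of 6 light libraries were below all dark ones. ATCG00340 changed by -0.59 (SE 0.23, adjusted p 0.03454), and its dark range of 0.3783 to 1.139 CPM overlapped its light range of 0.1856 to 0.8737 CPM.

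**Figure D5:**
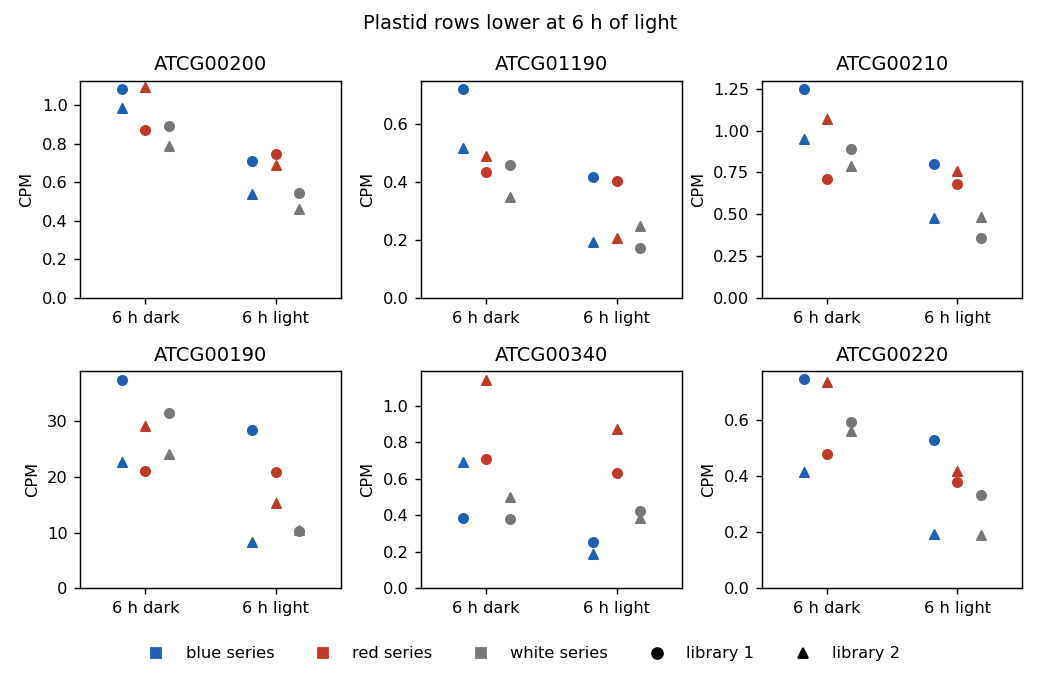
Levels (y axis, CPM) of the 6 plastid genes called lower over the 3 colours, in the 6 h dark and 6 h light libraries (x axis); each point is 1 library, coloured by series, with its shape showing the replicate number. For ATCG00200 every light point (0.4622 to 0.7452 CPM) is below every dark point (0.791 to 1.094 CPM), while for ATCG00340 the 2 ranges overlap.

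For fits that left out 1 library, the share of all genes called was not computed. Their counts are therefore not read as results about the members. The count of 6 depended on single libraries. It was 1 without library 2 of blue 6 h light, 12 without library 1 of that group and 2 without library 2 of red 6 h dark. ATCG01190 was called in 11 of 12 fits that left out 1 library and ATCG00210 in 10, and without library 2 of blue 6 h light their adjusted p were 0.05278 and 0.05542. ATCG00210 was also lost without library 2 of red 6 h dark (0.05082). ATCG00190 was called in 7 of 12 fits, with an adjusted p of up to 0.0666. It was lost without library 1 of blue 6 h dark or white 6 h dark and without library 2 of blue 6 h light, red 6 h dark or red 6 h light. ATCG00340 was called in 6 of 12, with an adjusted p of up to 0.1512, and was lost without library 1 of red 6 h light and without library 2 of blue 6 h dark, blue 6 h light, red 6 h dark, white 6 h dark or white 6 h light. ATCG00220 was called in 4 of 12, with an adjusted p of up to 0.1302. Its call held without library 1 of blue 6 h light, red 6 h dark or white 6 h light and without library 2 of blue 6 h dark, and was lost without any other library of the comparison. ATCG00120, with by far the most counts, had a log2 change of -0.38 (SE 0.27, adjusted p 0.2444). The 3 pairs of libraries with the same number deviated together at 6 h. A fit with the replicate number as a block, separate for each series, was therefore also read (8 residual degrees of freedom). It called 13 of 24 members lower, where 29.1% of all genes were, and these included all 6. The members' share was thus above that of all genes, unlike in the main fit. Members share libraries, and the block was chosen after calls had been seen. With the block ATCG00120 changed by -0.42 (SE 0.14, adjusted p 0.01999). The block also gave 8 members lower in blue (18.3% of all genes), ATCG00340 among them, and 3 in white (22.4%).

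In the dark, 6 h against 0 h, neither a member nor any other gene was called (0% of genes). No member had an unadjusted p under 0.05 with edgeR or DESeq2, where 769 of 23011 genes did in edgeR. Of the members' log2 changes 21 of 24 were positive, with a median of 0.22 against 0.005 over all genes. These 6 h dark groups are the ones that 6 h of light was set against. Leaving out each library moved the median between 0.07 (without library 2 of blue 0 h) and 0.42 (without library 1 of blue 0 h). It was 0.37 without library 1 and 0.07 without library 2 of red 0 h, 0.09 without library 1 of blue 6 h dark and 0.14 without library 2 of red 6 h dark.

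Comparing 6 h with 1 h of light keeps the pool size equal, and there no member was called in blue (32.7% of all genes) or red (27.8%). The medians were -0.39 and -0.30. The sign of the blue one turned without library 2 of blue 6 h light (0.15), and it was -0.88 without library 1 of that group. The red one was -0.50 without library 2 of red 6 h light. In blue ATCG00200 had 1.224 and 0.8762 CPM at 1 h and 0.7108 and 0.5408 CPM at 6 h (log2 change -0.75, SE 0.30, adjusted p 0.07036). The block fit called ATCG00100 and ATCG00110 lower in blue, where it called 17.8% of all genes lower.

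Responses at 6 h were also compared between colours. Blue against red gave no called member (0.0956% of all genes), nor did blue against white (0.0608%) or red against white (2.72%). No member had an unadjusted p under 0.05 with edgeR or DESeq2. Of 23011 genes, 1460, 1880 and 3922 had one in edgeR, in the same order. These comparisons use the same light and dark groups as those above. DESeq2 gave no adjusted p for 17 members in blue against white and for 1 member in each of the other 2.

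Nuclear genes whose products work beside plastid-encoded ones mostly rose at 6 h. Averaged over the colours at 6 h, 10 of 10 nuclear photosystem II subunits and 12 of 12 photosystem I subunits rose, with median log2 changes of 2.67 and 2.92, against 0.02 over all genes. So did 4 of 4 small subunits of Rubisco (2.02), 3 of 3 plastid ATP synthase subunits (2.03) and both cytochrome b6f subunits. Of 4 subunits of the plastid NDH complex, 3 rose and NdhO fell (log2 change -0.87, SE 0.20, adjusted p 0.002099). Of 27 nuclear plastid ribosomal proteins 25 rose and none fell (median 1.08). Over all genes 32.5% were called higher in this mean. Fewer of these nuclear genes were called in white light alone, where 41.6% of all genes were called in either direction. There 10 of 10 photosystem II and 10 of 12 photosystem I subunits rose, with both cytochrome b6f subunits. So did 2 of 4 Rubisco small subunits, 2 of 3 ATP synthase subunits and 15 of 27 ribosomal proteins. Of the 4 NDH subunits 1 rose and 1 fell in white light (median 0.24).

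The nuclear genes for plastid transcription rose as well in the mean over the colours at 6 h. All 6 sigma factors were called higher there (median 0.97), with SIGE at 4.21 (SE 0.16, adjusted p 1.304e-10) and SIG2 at 1.55 (SE 0.11). In white light alone, where 41.6% of all genes were called in either direction, 3 of 6 sigma factors were called higher (SIGE, SIG2 and SIGF). There SIGA (0.57, adjusted p 0.07618), SIGC (0.28, 0.2136) and SIG4 (-0.13, 0.7258) were not called. SIGE, a light-induced sigma factor, went from 2.057 ± 0.4946 CPM at blue 0 h to 162.9 ± 3.487 CPM after 1 h of blue light and from 2.743 ± 0.2164 to 106.4 ± 13.19 CPM in red (SD, n = 2), with both changes called. In the mean over the colours both phage-type polymerases rose, SCA3 by 1.02 and AT5G15700 by 0.91. Of 6 enzymes of plastid RNA processing and decay, 4 rose, and EMB2730 (-0.22, adjusted p 0.0771) and RNEE/G (-0.06, adjusted p 0.6926) were not called. In white light alone 2 of these 6 rose, CRB and emb2746, and EMB2730 fell (log2 change -0.54, SE 0.18, adjusted p 0.02439). RNEE/G is an endonuclease of plastid RNA decay. These nuclear changes stand beside the plastid values and their relation to them was not tested.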

How the data were processed

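RNA was sequenced from 22 libraries. The authors deposited 1 table of raw read counts per gene, whole numbers with no normalisation per the file headers; the genome build is TAIR10, per the submitters' processing notes. The sources used here name no aligner, counter, strand setting or rule for multiply placed reads. Those counts were fitted in edgeR 4.0.16 (R 4.3.3) with TMM factors, genes kept by filterByExpr (minimum count 10; 23011 of 33602, all 24 members included) and a mean per group (11 residual degrees of freedom). The quasi-likelihood F test was adjusted by Benjamini-Hochberg over all genes kept, with a threshold of 0.05, and was checked on simulated data. The simulated libraries were drawn independently of each other, so the check does not cover libraries that deviate together. DESeq2 1.42.0 was also used. CPM are counts scaled to normalised library size; the SE is the log2 change over the square root of F. Library totals ran from 35000731 to 138804638, and intervals are 95% Wilson.

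Members and nuclear gene lists were chosen with earlier results of these data known. The rule for named genes gave called members, and its part by gene symbol could not be applied because no source paired identifiers with symbols. Likeness was therefore measured to ATCG00120. Nuclear names came from RefSeq by locus tag (76 of 76). Libraries of 1 number deviated together within a series (median correlation 0.2869 over 15 pairs, 14 over 0.1; the light and dark pairs at 6 h were 0.3779, 0.2869 and 0.1238). The labels do not say that numbers mark a batch, and this decision was made after calls had been seen. Alternatives were other scalings, filters, fits and each library left out in turn.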

Additional observations from a re-analysis of the deposited data

Results flagged for a closer look

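In 4 cases both libraries of one light group lay on the opposite side of their dark libraries from both libraries of another colour. Each difference was tested as an interaction in edgeR, with Benjamini-Hochberg adjustment over all genes, and none passed. For ATCG00950 the 1 h response differed by -1.21 between blue and red (log2, SE 0.53, adjusted p 0.7978). For ATCG01280 it differed by -1.91 (SE 0.79, adjusted p 0.7978). The 6 h response of ATCG00270 differed by 1.16 between blue and red (SE 0.66, adjusted p 0.9204), and that of ATCG00040 by -1.35 between blue and white (SE 1.13, adjusted p 0.8114). These genes had at most 49 counts in any library. All 24 members were searched, in blue against red at 1 h and in each pair of colours at 6 h. The share of all genes placed in this way was not computed. The number of cases is therefore not read as a result about the members.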

How the results depend on the processing

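Members called lower in white light at 6 h, 0 in the main fit, were 1 with RLE factors, nuclear-gene factors, no filter, at least 5 CPM in 2 libraries or DESeq2, 3 with library totals alone or the replicate block, and 4 with only the libraries compared. In blue at 6 h, where the main fit gave 1, there were 3 with library totals alone, 8 with the block and 2 with DESeq2. There were 0 with only the libraries compared. The count was also 0 with at least 5 CPM or with the 7 members of 2200 or more counts. Both of these settings leave out ATCG00340, the member called in the main fit, so they could not call it. The mean over colours gave 6, against 13 with the block. It gave 1 with at least 5 CPM (which keeps 7 members) or with members of 2200 or more counts. Of the 6, only ATCG00190 is kept by these settings, so the others could not be called there. Blue 6 h against 1 h, 0 in the main fit, gave 1 with library totals alone and 2 with the block, and red gave 1 with only the libraries compared. The block changed no other count of members called. Shares of all genes called are given here only for the main and the block fits. Counts from the other settings are therefore not read as results about the members.

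Leaving out each library gave 1 to 12 members lower over the colours, 0 to 5 in blue at 6 h (0 without library 2 of blue 6 h light or of blue 6 h dark, 5 without library 1 of blue 6 h light), 0 to 1 in blue at 1 h and 0 in the other comparisons. The cause of these differences was not tested, and the share of all genes called was not computed for these fits. Sums without psbA and without ribosomal and transfer RNA genes were not run, as no source paired the identifiers with names. Outside the 7 members of 2200 or more counts, no library held over 153 counts of a member, and 2 libraries per group limit every test.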
